A study of Mus musculus with 8 samples.

Results

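The clustered histone genes, taken as all genes whose symbol begins with Hist1h, Hist2h, Hist3h or Hist4h, were followed in RNA-seq libraries of sorted splenic B-1a cells. The rule found 56 of the 10783 genes in the deposited table: 5 H1, 13 H2A, 16 H2B, 10 H3 and 12 H4 genes. All 56 passed the filter on low values, and none was at 0 reads in any library. The libraries came from BALB/c mice 2 to 3 months old and fell into 3 groups. The first held IgMneg B-1a cells, which lack surface IgM, of mice whose B cells lose CTLA-4 (CKO, genotype Ctla4 fl/fl with a Cre active in B cells, 3 libraries), and the second held IgMhi B-1a cells of CKO mice (2 libraries). The third held IgMhi B-1a cells of control mice (Ctla4 +/+ with the same Cre, given as wild type in the sample labels, 3 libraries). Mice of both genotypes carried the Cre, so the controls show no effect of Cre against its absence. The numbers 2 and 3 occur among both the IgMneg and the IgMhi libraries of CKO mice and were taken to name the mouse, and libraries are called by these numbers.

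Dividing cells make most of their histones from clustered genes that are switched on in S phase, when new DNA is packed. Their mRNAs mostly have no intron and no poly(A) tail. They end instead in a short stem-loop that is bound by the protein SLBP. H2A, H2B, H3 and H4 form the core of the nucleosome, and H1 binds the linker DNA between nucleosomes. A second set of histone genes, the replication-independent variants such as H3f3a and H2afz, is scattered over the genome and gives polyadenylated mRNAs in cycling and resting cells alike. The libraries were made after removal of ribosomal RNA and with no selection for poly(A) stated in the methods, so that RNA without a tail could be read.

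The stem-loop is shown first, because it is the feature that these mRNAs share and most other mRNAs lack. In the mouse genome build mm9, 51 of the 55 protein-coding members (92.7%) held a match to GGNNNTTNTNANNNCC, whose first 6 and last 6 bases can pair, within 100 bases after the stop codon. Only the sense strand was searched. Of 22324 other protein-coding genes, 13 held one (0.0582%), and 10 of these 13 also carry the symbol of a histone gene. Capitals mark the 16 bases of the stem-loop, each with 5 bases on either side, and each line is the sense strand of 1 gene of a class.
Hist1h1e (H1): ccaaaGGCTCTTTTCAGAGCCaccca
Hist2h2ac (H2A): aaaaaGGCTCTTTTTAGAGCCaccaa
Hist1h2bn (H2B): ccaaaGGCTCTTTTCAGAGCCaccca
Hist1h3e (H3): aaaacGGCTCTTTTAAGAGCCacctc
Hist1h4d (H4): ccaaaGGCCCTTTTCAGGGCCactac
Hist1h4b (H4): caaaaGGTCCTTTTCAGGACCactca

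The stretches lie at chr13:23713646-23713671 (minus strand), chr3:96024336-96024361 (minus), chr13:21846397-21846422 (plus), chr13:23653767-23653792 (minus), chr13:23673814-23673839 (plus) and chr13:23849230-23849255 (plus), in the order of the lines. All 39 matches in H1, H2A, H2B and H3 genes had the stem GGCTCT with AGAGCC. The 12 H4 genes had other stems, GGCCCT with AGGGCC in 10 genes and GGTCCT with AGGACC in 2 genes. The stem-loops began a median of 30 bases after the stop codon (range, 21 to 55). Hist1h2an, Hist1h2bp, Hist2h2bb and Hist2h2be held no match in this window, and the pseudogene Hist3h2bb-ps was not searched. In 12 of the 51 genes, Hist1h2bn among them, the stem-loop did not lie wholly inside an exon of the annotation used here (GENCODE vM1). Reads over the stem-loop may not have been assigned to these genes.

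The members lie in 4 clusters, with 46 genes on chromosome 13 (Hist1), 6 on chromosome 3 (Hist2), 3 on chromosome 11 (Hist3) and 1 on chromosome 6 (Hist4h4). The annotation gives 52 of them a single exon and 4 of them 2 exons. H4 genes also differed from the other classes in their promoters. For 50 members, 51 promoters were found in the RefSeq table (build GRCm38.p6, 250 bases before to 50 bases after the start). CCAAT, on either strand, was present in all matched genes of H1 (5), H2A (13), H2B (13) and H3 (8), against 3 of 11 H4 genes. Over all members, 43 of 51 promoters (84.3%) held CCAAT, against 37.4% of the 32851 promoters in the table. TATAAA, on either strand, was in 31 of 51 (60.8%), against 13.6%. Matches of the 2 motifs can share a base. They are matches of letters and do not show that a factor binds there.

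Many histone genes are near copies of each other, which bears on every count below. A read that fits several places in the genome is left out by the counting tool at its default setting. Of the 75-base windows of a member's exons, the share found once in mm9 had a median of 97.1% in H1, 65.6% in H2A, 55.4% in H2B, 47.6% in H3 and 63.6% in H4 genes. It was lowest in Hist1h4n (8.71%), Hist1h2an (15.4%) and Hist1h2ag (19.4%). It was 100% in 6 genes, namely Hist1h1a, Hist1h1b, Hist2h2bb, Hist2h2be, Hist2h4 and Hist4h4. Levels of genes with few unique windows can therefore be undercounted. The window length was set without regard to the read length, which is not given in the sources used here. Hist1h2bm, Hist1h4b and Hist2h2ab overlap annotated genes on the opposite strand. The cDNA kit named in the methods is not stated to mark strand, so reads of the 2 partners cannot be told apart. Hist1h2ac, Hist1h2be and Hist3h2a overlap annotated genes on the same strand, and reads over the shared stretch may have been left out.

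**Figure D1:**
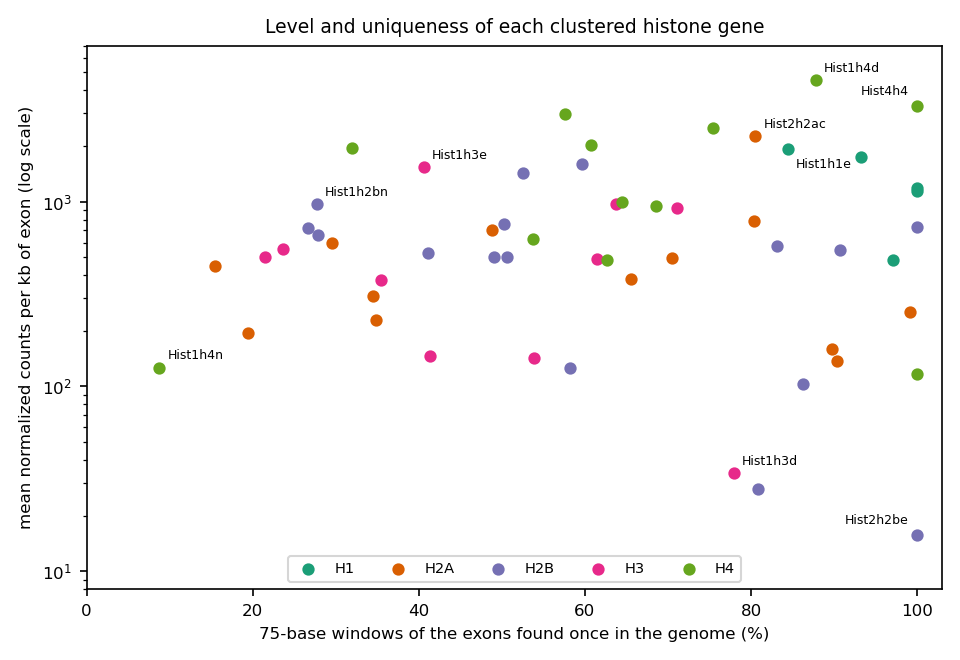
The x axis gives the percentage of 75-base windows of a gene's exons that occur once in mm9, and the y axis the mean normalized counts per kb of exon over the 8 libraries, on a log scale. Each point is 1 of the 56 genes, coloured by class. Exons are those of GENCODE vM1, while the study took its annotation from iGenomes. Levels spread widely at every degree of uniqueness, with Hist2h2be lowest at 15.7 and Hist1h4d highest at 4539 normalized counts per kb.

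Reads in genes ranged from 1404660 in control library 2 to 10289686 in control library 3. Histone genes took 0.504%, 0.534% and 0.68% of them in CKO IgMneg libraries 1, 2 and 3, 0.654% and 0.556% in CKO IgMhi libraries 2 and 3, and 0.46%, 0.59% and 0.715% in control libraries 1, 2 and 3. The median member had 93 reads in control library 2 and 783 in control library 3, and the lowest count was 2 reads, in control library 2. The ribosomal precursor Rn45s took 7.53% to 8.48% of reads in CKO IgMneg, 9.04% and 11.6% in CKO IgMhi, and 17.3%, 25.1% and 4.62% in control libraries. Ctla4, the gene targeted in B cells, had 48.5, 73.8 and 33.0 normalized counts in CKO IgMneg, 36.2 and 28.5 in CKO IgMhi, and 42.2, 43.1 and 76.8 in control libraries. Whole-gene counts do not separate the floxed exons, so they do not check the genotype labels.

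Levels between genes were compared per kb of exon. Exon lengths were those of GENCODE vM1, while the study took its transcript annotation from iGenomes. The order of genes and classes per kb can therefore depend on the gene models. H4 genes took the largest share of the summed histone normalized counts per kb, with 42.6 ± 1.75% in CKO IgMneg (SD, n = 3), 42.4 ± 2.39% in CKO IgMhi (SD, n = 2) and 39.6 ± 4.19% in control libraries (SD, n = 3). H2B genes followed with 20.2 ± 0.417%, 20.9 ± 1.53% and 18.8 ± 1.06% in the same groups. H2A genes had 13.9 ± 1.02%, 13.6 ± 0.940% and 14.4 ± 0.494%, H1 genes 12.9 ± 0.835%, 11.5 ± 2.08% and 14.9 ± 3.06%, and H3 genes 10.5 ± 1.76%, 11.6 ± 0.278% and 12.4 ± 1.09%. The share of H2A was above that of H3 in all 8 libraries, while the share of H1 overlapped both within groups and had no clear place in the order. Among single genes, Hist1h4d (4539 normalized counts per kb), Hist4h4 (3307) and Hist1h4h (2975) were highest. The top gene was Hist1h1e (1923) in H1, Hist2h2ac (2255) in H2A, Hist1h2bb (1604) in H2B and Hist1h3e (1541) in H3. Hist2h2be was lowest at 15.7, although all of its 75-base windows are unique.

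By normalized counts, without length, 2 genes led each class. In H1 these were Hist1h1c and Hist1h1d, which encode linker histones. Hist1h1c had 2161, 2815 and 2479 normalized counts in CKO IgMneg, 2926 and 1803 in CKO IgMhi, and 3215, 2987 and 3330 in control libraries. Hist1h1d had 1420, 2157 and 2059 in CKO IgMneg, 1969 and 1430 in CKO IgMhi, and 1605, 2183 and 2018 in control libraries. All 3 controls were above all 5 CKO libraries for Hist1h1c, and the groups overlapped for Hist1h1d. The H2A gene Hist2h2ac had 1063, 1430 and 1295 in CKO IgMneg, 1011 and 1038 in CKO IgMhi, and 876, 1685 and 983 in control libraries. Hist1h2ai had 412, 631 and 612 in CKO IgMneg, 471 and 475 in CKO IgMhi, and 396, 637 and 495 in control libraries. For both, control library 2 was the highest and control library 1 the lowest of all 8.

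In H2B, Hist1h2be had 1279, 1542 and 1564 in CKO IgMneg, 1650 and 834 in CKO IgMhi, and 871, 1422 and 1458 in control libraries. Hist2h2bb had 905, 975 and 1392 in CKO IgMneg, 1208 and 1089 in CKO IgMhi, and 809, 1403 and 1053 in control libraries. Neither separated the groups. In H3, Hist1h3e had 890.3, 923 and 1814 in CKO IgMneg, 1364 and 1127 in CKO IgMhi, and 1140.4, 1566 and 1484 in control libraries. Its highest and its lowest values were both in the CKO IgMneg group. Hist1h3f had 428, 907 and 1157 in CKO IgMneg, 650.5 and 919 in CKO IgMhi, and 1020.4, 1388 and 992 in control libraries, with CKO IgMneg library 1 far under the rest. In H4, Hist1h4d had 1575, 1213 and 2148 in CKO IgMneg, 1992 and 1705 in CKO IgMhi, and 1543, 2533 and 1560 in control libraries. Hist1h4h had 1238, 849.6 and 1541 in CKO IgMneg, 1631 and 1574 in CKO IgMhi, and 1018, 2049 and 1284 in control libraries. The 2 CKO IgMhi libraries lay close together for both H4 genes and inside the range of the controls.

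The summed histone level did not separate the 3 groups. The 56 genes summed to 25796, 29826 and 36639 normalized counts in CKO IgMneg, 32701 and 27990 in CKO IgMhi, and 25687, 39650 and 32447 in control libraries. Group means were 30753 ± 5481 (SD, n = 3), 30345 ± 3332 (SD, n = 2) and 32595 ± 6983 (SD, n = 3) in the same order, closer to each other than the libraries of any 1 group. The sums of H2A, H2B, H3 and H4 overlapped between groups in the same way. H1 summed to 8040 and 5579 in CKO IgMhi, and to 8123, 8991 and 8876 in control libraries, without overlap but with a narrow gap. The H1 groups overlapped as RPM, scaled to the reads outside Rn45s (1768 and 1254 in CKO IgMhi, and 1757, 1786 and 2050.3 in control libraries). They also overlapped without Hist1h1c, the highest H1 gene (5114 and 3775 normalized counts in CKO IgMhi, and 4909, 6004 and 5547 in control libraries). In CKO IgMneg libraries H1 summed to 6381, 7805 and 8179, which reached into the control range. In bulk RNA, fewer cells in S phase and less histone RNA per cell cannot be told apart.

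**Figure D2:**
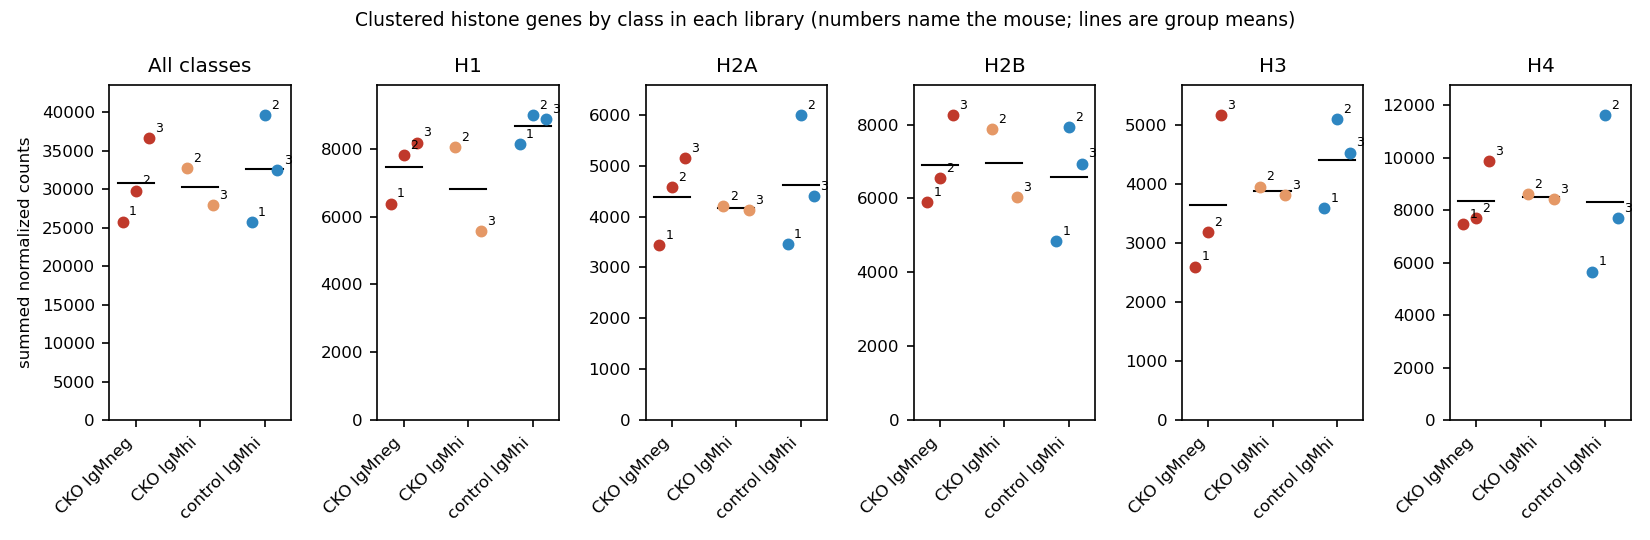
Each panel gives on the y axis the summed normalized counts of all 56 genes or of 1 class, starting at 0. Points are libraries labelled by mouse number, and lines are group means of the 3 CKO IgMneg, 2 CKO IgMhi and 3 control IgMhi libraries. The groups overlap in each panel but for CKO IgMhi (8040 and 5579) against control (8123 to 8991) in H1, where they overlap as RPM outside Rn45s (1768 and 1254 against 1757 to 2050.3).

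Within groups, many histone genes were high or low together in a library. In the CKO IgMneg group 52 of 56 members were higher in library 3 than in library 1, with a median log2 difference of 0.65, against 50.1% of all genes tested and a median of 0.00108. Among controls 46 of 56 were higher in library 2 than in library 1 (median log2 difference, 0.70), and 46 of 56 were higher in library 3 than in library 1 (0.36). The 2 CKO IgMhi libraries differed less, with 22 of 56 members higher in library 3 than in library 2 (-0.07). The median deviation of the members from their mean over 8 libraries, on the log2 scale, was -0.30, -0.08 and 0.29 in CKO IgMneg, 0.11 and -0.04 in CKO IgMhi, and -0.32, 0.38 and 0.08 in control libraries. All genes tested had medians between 0.00275 and 0.0126. Scaling of the libraries by size factors holds the median of all genes near 0 in advance, also between any pair of libraries. These all-gene values therefore do not compare the members with other sets of genes.

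The within-group spread of a member was correspondingly wide. The SD within groups on the log2 scale had a median of 0.41 over the members (range, 0.17 in Hist1h3b to 0.87 in Hist1h4n), against 0.25 over the 9747 genes tested in the same range of mean level. That range held most of the 10627 genes tested, whose median was 0.26. The genes in it were not matched to the members one by one in level or length. Library 2 of the controls, with the highest histone deviation, was also the shallowest and had the highest share of Rn45s. CKO IgMneg library 3, the next highest, had 9639495 reads in genes and 8.39% Rn45s. The S phase list (52 genes) summed to 13170, 11356 and 13654 normalized counts in CKO IgMneg, 10885 and 12177 in CKO IgMhi, and 10731, 10561 and 11370 in control libraries. Control library 2, highest for histones, was thus the lowest for the S phase list. The part of depth, Rn45s and S phase genes in the histone levels was not tested.

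**Figure D3:**
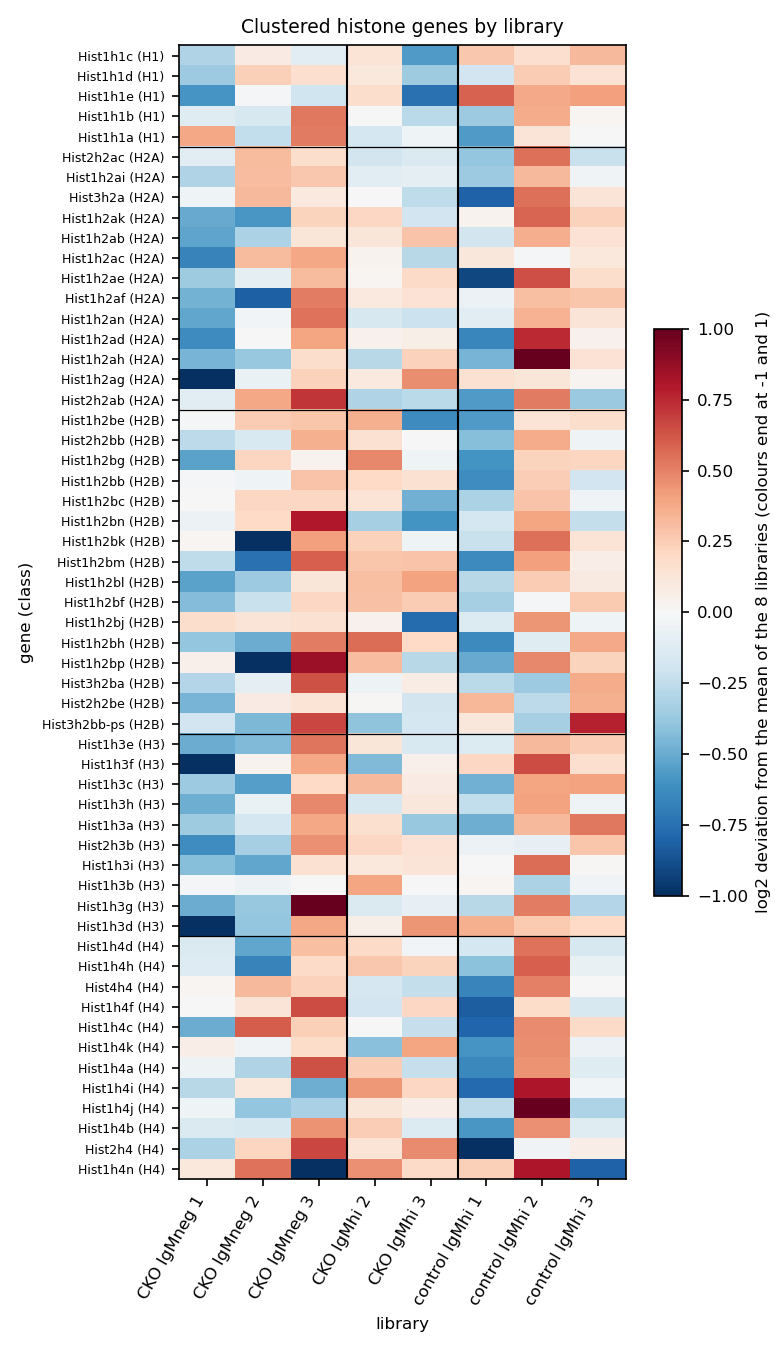
Rows are the 56 genes grouped by class and ordered by mean level, and columns are the 8 libraries with CKO IgMneg at the left, CKO IgMhi in the middle and control IgMhi at the right. Colour gives the log2 deviation of a gene from its mean over the 8 libraries, ending at -1 and 1. CKO IgMneg library 1 and control library 1 are mostly blue, with median deviations of -0.30 and -0.32, and CKO IgMneg library 3 and control library 2 are mostly red, with 0.29 and 0.38.

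The first comparison was of CKO IgMneg with CKO IgMhi B-1a cells, which the study set against each other as a later and an earlier state of the same cells. No histone gene passed the test (limma, Benjamini-Hochberg adjusted over 10627 genes, threshold 0.05), while 7.53% of all genes tested did. At an unadjusted p under 0.05, 2 members were higher and 2 lower, 4 of 56 in all, against 24.3% of all genes. The median log2 fold change was -0.05 over the members and 0.01 over all genes, and 25 members were higher and 31 lower. By class the medians were 0.14 in H1 (5 of 5 higher), -0.13 in H2A, -0.10 in H2B, -0.17 in H3 (2 of 10 higher) and -0.06 in H4. Without CKO IgMneg library 1 the median over members was 0.11, and without CKO IgMneg library 3 it was -0.24. It was -0.26 with the length and GC trend removed (all genes, 0.05) and 0.11 in the CKO libraries alone with the mouse number as a term (all genes, 0.00426).

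Hist1h2bn, an H2B gene on chromosome 13, came closest to the threshold. It had 338, 407 and 615 normalized counts in CKO IgMneg libraries, against 281 and 234 in CKO IgMhi libraries. All 3 IgMneg libraries were above both IgMhi libraries, and the log2 fold change was 0.78 ± 0.24 (SE, limma adjusted p = 0.0576). edgeR gave Hist1h2bn an adjusted p of 0.0348 and DESeq2 0.0144, and it was the only member either tool called, where they called 10.4% and 13.0% of all genes. Over its 26 alternatives the adjusted p of Hist1h2bn lay between 1.98e-06 and 0.389, with a log2 fold change of 0.53 to 0.96. Only 27.7% of its 75-base windows are unique, so its count rests on a small share of its sequence.

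The other members at an unadjusted p under 0.05 were Hist1h2bl, Hist1h2bj and Hist1h2ab, which were chosen after their values were seen. Hist1h2bl had 185, 209.6 and 293 normalized counts in CKO IgMneg, against 333 and 357 in CKO IgMhi libraries (log2 fold change, -0.61 ± 0.21 SE, limma adjusted p = 0.0877). Hist1h2bj had 255, 247 and 251 in CKO IgMneg, against 232 and 132 in CKO IgMhi libraries (0.52 ± 0.24 SE, limma adjusted p = 0.188), and its log2 fold change was 0.11 without CKO IgMhi library 3 and 0.93 without CKO IgMhi library 2. Hist1h2ab had 239.6, 279 and 377.2 in CKO IgMneg, against 376.6 and 422 in CKO IgMhi libraries (-0.44 ± 0.21 SE, limma adjusted p = 0.202). The 3 H2B genes named here thus went both ways. At the ends of the range, Hist2h2ab had 55.3, 78.6 and 98.9 in CKO IgMneg, against 48.3 and 49.4 in CKO IgMhi (0.62 ± 0.36 SE), and Hist1h3d had 15.5, 30.2 and 52.5, against 41.5 and 54.4 (-0.68 ± 0.43 SE). The value of Hist1h3d was -0.25 without CKO IgMneg library 1 and -1.10 without CKO IgMneg library 3. Hist1h4n had 52.4, 71.5 and 16.2 in CKO IgMneg, against 67.2 and 55.7 in CKO IgMhi (-0.62 ± 0.53 SE), a difference that rested on CKO IgMneg library 3 and was 0.000473 without it.

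Mice 2 and 3 gave both sorts, so the comparison could also be made within a mouse. In mouse 2, 19 of 56 members were higher in IgMneg than in IgMhi cells (median log2 difference, -0.16), and in mouse 3, 45 of 56 were (0.36). Members higher in both mice were 17 (30.4%, against 36.1% of all genes tested), and members lower in both were 9 (16.1%, against 35.3%). With a replicate block for the CKO mouse as a random effect, limma called 2 members, Hist1h2bn higher (adjusted p = 0.0181) and Hist1h2bl lower (adjusted p = 0.0468), against 15.4% of all genes. When the control libraries were left out and the mouse number was a term, the estimate came from the 2 paired mice, since CKO IgMneg library 1 has no partner. That fit called 13 members, 10 higher and 3 lower, and 23.2% of all genes. Of these, Hist1h2bn (0.96, limma adjusted p = 1.98e-06), Hist1h4c (0.54, limma adjusted p = 0.00346) and Hist1h4h (-0.49, limma adjusted p = 0.0051) had the smallest p. This fit has 1 residual degree of freedom and relies on the spread limma borrows from other genes.

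The second comparison was of CKO IgMneg with control IgMhi B-1a cells, which differ both in genotype and in sort. limma called no member and 0.301% of all genes. At an unadjusted p under 0.05, 1 member was higher and 3 were lower, against 15.4% of all genes. The median log2 fold change was -0.07 over the members and 0.01 over all genes, with 23 members higher and 33 lower. By class it was -0.06 in H1, -0.12 in H2A, -0.02 in H2B, -0.24 in H3 (2 of 10 higher) and 0.13 in H4 (7 of 12 higher). The median over members turned to 0.11 without CKO IgMneg library 1 and to 0.04 without control library 2.

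Hist1h1e, a linker histone gene on chromosome 13 (23713624 to 23714371 of mm9, minus strand, 1 exon), had the smallest p in this comparison. It had 912, 1355 and 1194 normalized counts in CKO IgMneg libraries, against 2069.7, 1790.5 and 1821 in control libraries. All IgMneg libraries were under all controls, with a log2 fold change of -0.73 ± 0.20 (SE, limma adjusted p = 0.111). DESeq2 called Hist1h1e (adjusted p = 0.0324) and no other member, against 1.76% of all genes, and edgeR called no member, against 0.433% of all genes. With the replicate block as a random effect no member was called either, against 0.423%. Over its 25 alternatives the adjusted p of Hist1h1e in this comparison lay between 0.0324 and 0.569. Hist1h1c gave -0.36 ± 0.17 (SE, limma adjusted p = 0.32), with the library values given above. In humans, the genes for these 2 linker histones are known to be mutated in B-cell lymphomas.

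Among core histones, Hist1h2ak had 274, 259.7 and 457 normalized counts in CKO IgMneg, against 400.2, 584 and 459 in control libraries (-0.57 ± 0.21 SE, limma adjusted p = 0.216). Hist1h4f had 941, 1027 and 1478 in CKO IgMneg, against 529, 1068 and 839 in control libraries (0.53 ± 0.22 SE, limma adjusted p = 0.267). The groups overlapped in both genes. The ends of the range also held Hist2h4, with 142, 205 and 282 in CKO IgMneg, against 75.6, 172 and 185 in control libraries (0.58 ± 0.30 SE), and Hist1h3d, with 15.5, 30.2 and 52.5 in CKO IgMneg, against 51.1, 47.9 and 45.9 in control libraries (-0.71 ± 0.39 SE). Without control library 1, Hist1h4f gave 0.25 and Hist2h4 0.17, and without CKO IgMneg library 3 Hist1h4f gave 0.33 and Hist2h4 0.34. Hist1h3d gave -0.27 without CKO IgMneg library 1 and -1.12 without CKO IgMneg library 3.

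The last comparison was of CKO IgMhi with control IgMhi B-1a cells, which bears on the loss of CTLA-4 within 1 sort. limma called no member and 0.179% of all genes. At an unadjusted p under 0.05, no member was higher and 2 were lower, against 9.62% of all genes. edgeR called no member and 0.254% of all genes, and DESeq2 none of the 49 members to which it gave an adjusted p and 1.64% of all genes. The median log2 fold change was -0.05 over the members and 0.00379 over all genes, with 25 members higher and 31 lower. By class it was -0.19 in H1 (1 of 5 higher), -0.08 in H2A, 0.02 in H2B, -0.07 in H3 and 0.13 in H4 (9 of 12 higher). The median over members turned to 0.16 without control library 2 and to 0.02 without CKO IgMhi library 3.

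Both members at an unadjusted p under 0.05 were linker histone genes. Hist1h1e had 1548 and 819.7 normalized counts in CKO IgMhi, against the controls at 2069.7, 1790.5 and 1821 (log2 fold change, -0.75 ± 0.22 SE, limma adjusted p = 0.208). The log2 fold change of Hist1h1e was -0.29 without CKO IgMhi library 3 and -1.20 without CKO IgMhi library 2. Hist1h1c had 2926 and 1803 in CKO IgMhi, against 3215, 2987 and 3330 in control libraries (-0.47 ± 0.19 SE, limma adjusted p = 0.406), with -0.12 without CKO IgMhi library 3 and -0.82 without CKO IgMhi library 2. Both comparisons with controls share the control libraries, so their values for Hist1h1e and Hist1h1c are not independent of each other. The highest members were Hist2h4, with 194 and 245 in CKO IgMhi against 75.6, 172 and 185 in control libraries (0.70 ± 0.34 SE), and Hist1h2bh, with 307 and 239 against 133, 192 and 271 (0.51 ± 0.30 SE). Hist1h3f was low beside Hist1h1e, with 650.5 and 919 in CKO IgMhi against 1020.4, 1388 and 992 in control libraries (-0.53 ± 0.30 SE). Without control library 1 the log2 fold change was 0.29 in Hist2h4 and 0.25 in Hist1h2bh. Without CKO IgMhi library 2 it was 0.33 in Hist1h2bh and -0.29 in Hist1h3f.

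**Figure D4:**
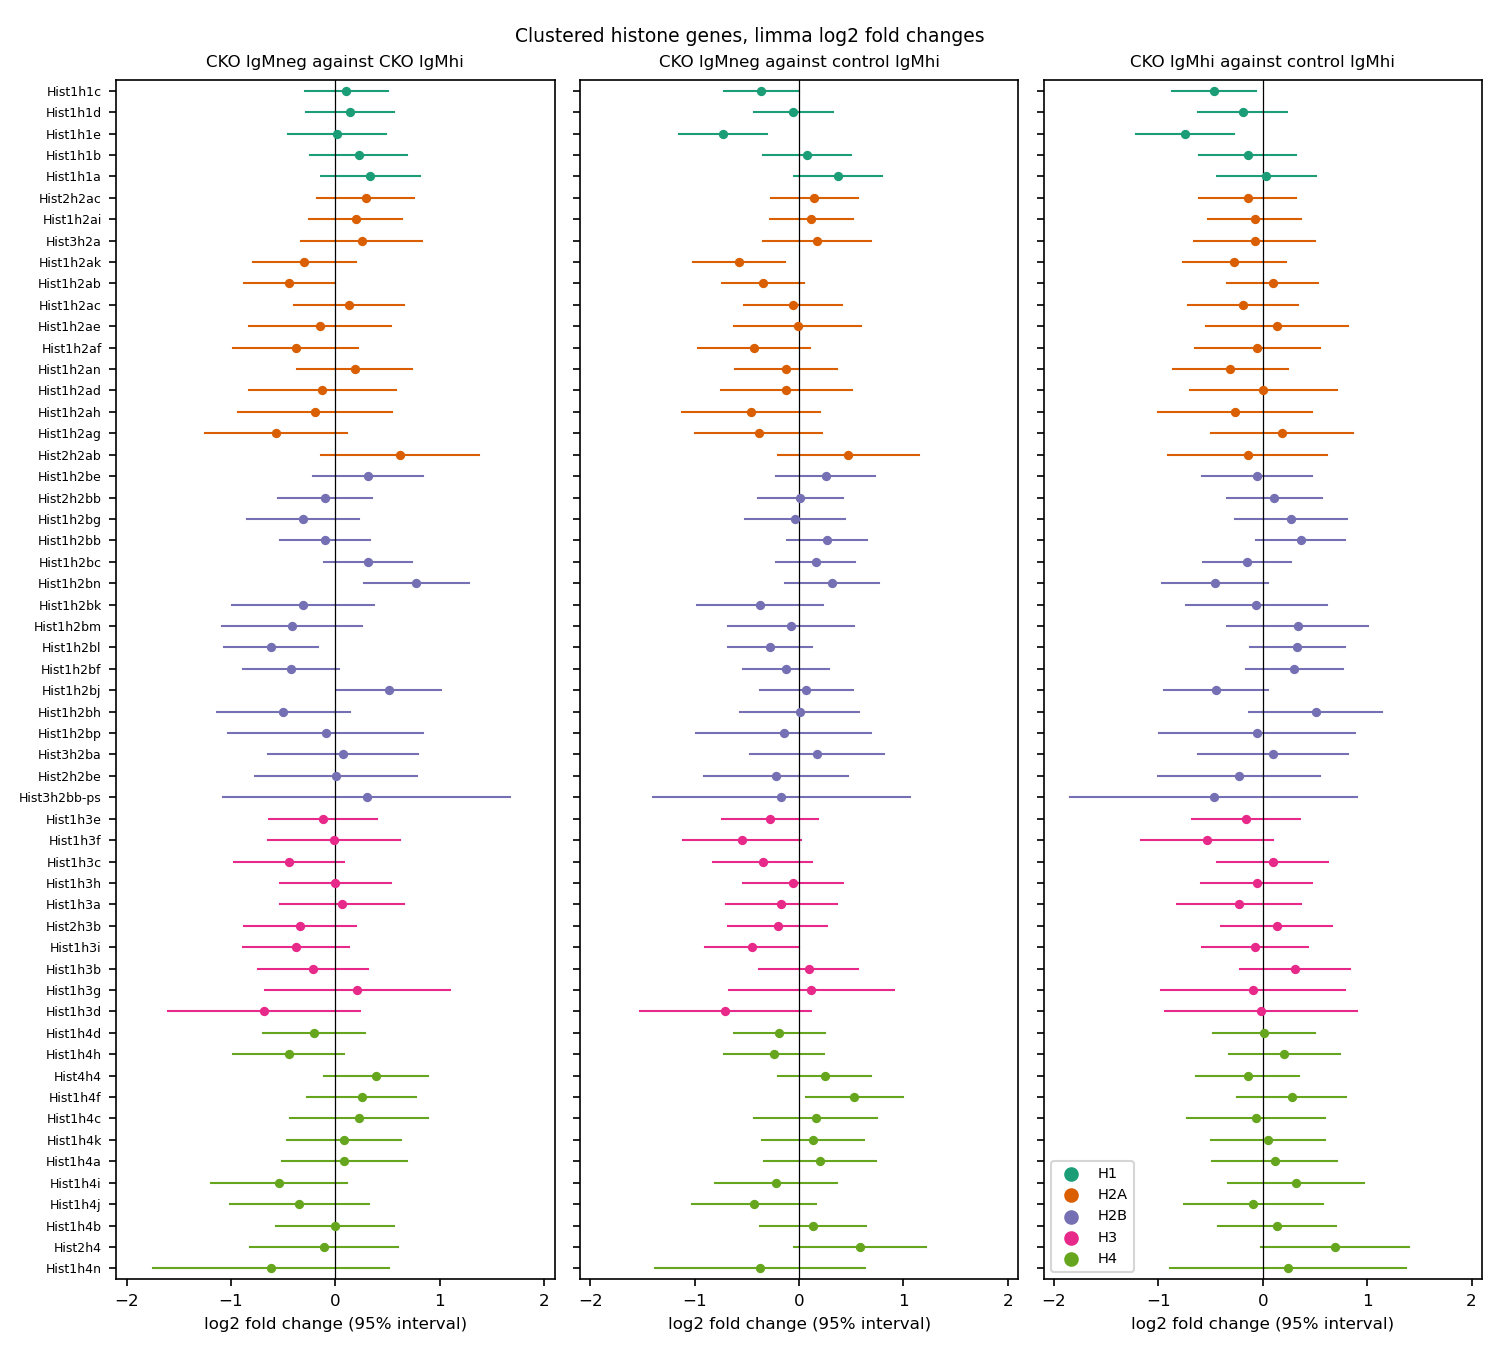
Rows are the 56 genes by class, and the x axis gives the log2 fold change with its 95% interval from limma in each of the 3 comparisons. In each panel most intervals cross 0, with medians of -0.05, -0.07 and -0.05. Hist1h2bn is the highest at the left (0.78) and Hist1h1e the lowest in the middle (-0.73) and at the right (-0.75).

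The precision of these libraries sets what can be said of the members that did not pass. The 95% interval of the log2 fold change had a median half-width of 0.53 in CKO IgMneg against CKO IgMhi, 0.48 in CKO IgMneg against control and 0.53 in CKO IgMhi against control B-1a cells. It lay wholly between -1 and 1, that is within a doubling or a halving, for 42, 46 and 47 of the 56 members in these comparisons. For this fit limma draws the spread of each gene toward a trend over all genes. The members' own SD within groups was wider (median, 0.41, against 0.25 over genes in the same range of level). The intervals may therefore be too narrow for many members, and these counts too high. Libraries did not overlap between groups for 10, 2 and 7 members, against 42.2%, 19.6% and 28.8% of all genes tested. These intervals are not adjusted over genes, and some leave out 0, such as that of Hist1h2bn in CKO IgMneg against CKO IgMhi cells (0.27 to 1.28). After adjustment no member was told apart from 0 by this fit. The fit with the mouse number as a term also called members at sizes under the median half-width, such as Hist1h4f (0.38).

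The genes that make and process histone mRNA were read from a list of 30, of which 28 were tested. In CKO IgMneg against CKO IgMhi cells 2 fell and 0 rose, where 7.53% of all genes tested were called in either direction. The median log2 fold change was 0.10. Against the controls none was called in CKO IgMneg (0.301% of all genes) or in CKO IgMhi cells (0.179%). Slbp, which encodes the stem-loop binding protein, had 531, 627 and 567 normalized counts in CKO IgMneg, 478 and 367 in CKO IgMhi, and 376, 469 and 403 in control libraries. All IgMneg libraries were above all others, but the difference from CKO IgMhi did not pass (0.45 ± 0.17 SE, limma adjusted p = 0.111), nor did that from control cells (0.47 ± 0.15 SE, limma adjusted p = 0.173). Npat, a coactivator of histone genes in S phase, had 172, 171 and 107 in CKO IgMneg, 217 and 187 in CKO IgMhi, and 169, 278 and 202 in control libraries. It gave -0.46 ± 0.25 (SE, limma adjusted p = 0.273) in CKO IgMneg against CKO IgMhi cells. The fallen genes were Zcchc11 (-0.87 ± 0.16 SE, limma adjusted p = 0.00419), a terminal uridylyltransferase, and Upf1 (-0.91 ± 0.22 SE, limma adjusted p = 0.0208), a helicase needed for the decay of histone mRNA.

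Genes listed as replication-independent histone variants, H2afx and Cenpa among them, were called in no comparison (9 tested of 14). Over all genes, 7.53% were called in CKO IgMneg against CKO IgMhi, 0.301% in CKO IgMneg against control and 0.179% in CKO IgMhi against control. In CKO IgMneg against CKO IgMhi cells 8 of the 9 were higher with a median log2 fold change of 0.37. At an unadjusted p under 0.05, 5 of the 9 were higher, where 24.3% of all genes were under it in either direction. In CKO IgMneg against control cells 6 of 9 were higher (median, 0.08), and in CKO IgMhi against control cells 8 of 9 were lower (median, -0.15). H3f3a averaged 6009 ± 468 normalized counts in CKO IgMneg (SD, n = 3), 4698 ± 948 in CKO IgMhi (SD, n = 2) and 5674 ± 293 in control libraries (SD, n = 3), with a log2 fold change of 0.37 in CKO IgMneg against CKO IgMhi cells (limma adjusted p = 0.199). H3f3b, a second gene for the H3.3 variant, averaged 3880 ± 298 in CKO IgMneg, 2805 ± 47.6 in CKO IgMhi and 3826 ± 110 in control libraries (0.46, limma adjusted p = 0.0623). The CKO IgMneg and control means of H3f3b lay close together, with CKO IgMhi under both. Of 27 histone chaperones tested of 30, 1 rose and 4 fell in CKO IgMneg against CKO IgMhi cells, against 7.53% of all genes. The median log2 fold change of the 27 was 0.00685. Dnajc9, a chaperone of H3 and H4, rose (0.52 ± 0.15 SE, limma adjusted p = 0.0406). Cabin1 (-0.69 ± 0.17 SE, limma adjusted p = 0.022) and Hira (-0.92 ± 0.23 SE, limma adjusted p = 0.0245), which both belong to the complex that deposits H3.3, fell, as did Supt6 and Ubn2. None of the 27 was called against control cells in either CKO group.

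The cell cycle lists gave the setting for these levels. None of 52 S phase and DNA replication genes was called in any comparison, with median log2 fold changes of 0.12 in CKO IgMneg against CKO IgMhi, 0.17 in CKO IgMneg against control and 0.06 in CKO IgMhi against control cells. Over all genes, 7.53%, 0.301% and 0.179% were called in the same order. At an unadjusted p under 0.05, 8 of the 52 were higher in CKO IgMneg against CKO IgMhi cells, where 24.3% of all genes were under it. In CKO IgMneg against control cells 13 were higher and 2 lower (15.4% of all genes), and in CKO IgMhi against control cells 2 were higher (9.62%). Pcna, the sliding clamp of DNA polymerase, averaged 1276 ± 141 in CKO IgMneg (SD, n = 3), 1014.7 ± 53.7 in CKO IgMhi (SD, n = 2) and 966 ± 65.1 normalized counts in control libraries (SD, n = 3). Of 34 G2 and mitosis genes, 2 fell in CKO IgMneg against CKO IgMhi cells, where 7.53% of all genes were called. These were Mki67 (-1.38 ± 0.26 SE, limma adjusted p = 0.00522) and Cenpf (-1.68 ± 0.46 SE, limma adjusted p = 0.0339). Of the list, 31 of 34 were lower with a median of -0.32. The medians of the G2 and mitosis list were -0.05 in CKO IgMneg and 0.35 in CKO IgMhi against control cells, with none called.

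RNAs that, like clustered histone mRNA, mostly carry no poly(A) tail were followed as a further list, with 13 of 21 tested. In CKO IgMneg against CKO IgMhi cells 1 rose, where 7.53% of all genes were called. It was Scarna2 (0.99 ± 0.19 SE, limma adjusted p = 0.00646), a small RNA of Cajal bodies. The median log2 fold change was 0.61, against -0.05 for the histone genes. The medians were 0.16 in CKO IgMneg and -0.06 in CKO IgMhi against control cells, with none called. Rn45s was not called in any comparison, with log2 fold changes of -0.24, -0.68 and -0.45 and wide errors (0.87 SE in CKO IgMneg against CKO IgMhi cells).

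B cell identity genes were read next. Of 11 B-1a and B cell genes, 1 rose and 3 fell in CKO IgMneg against CKO IgMhi cells, against 7.53% of all genes. None was called against control cells. Spn, which encodes the CD43 antigen used in the sort, rose (0.85 ± 0.22 SE, limma adjusted p = 0.0268). Cd79a, a signalling chain of the B cell receptor, fell (-0.83 ± 0.16 SE, limma adjusted p = 0.00663), as did the transcription factor genes Bhlhe41 (-0.73 ± 0.17 SE, limma adjusted p = 0.0196) and Pax5 (-0.56 ± 0.16 SE, limma adjusted p = 0.0412).

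Markers of other cells were read beside the histone genes. Of the T cell list 4 of 14 genes were tested. Their summed level was 953, 885 and 1095 normalized counts in CKO IgMneg, 376 and 513 in CKO IgMhi, and 407 to 427 in control libraries. Lck alone made most of each sum, with 707, 642 and 801 in CKO IgMneg, 318 and 456 in CKO IgMhi, and 333, 297 and 356 in control libraries. Lck was thus read in every sorted B-1a library, and whether its RNA came from T cells was not tested. Cd3g rose in CKO IgMneg cells against CKO IgMhi (2.08 ± 0.25 SE, limma adjusted p = 0.000397) and against control cells (1.45 ± 0.23 SE, limma adjusted p = 0.00612), as did Lck (0.90 ± 0.18 SE, limma adjusted p = 0.00694, and 1.12 ± 0.16 SE, limma adjusted p = 0.00319). The myeloid list (6 of 10 tested) summed to 107, 77.0 and 560.5 in CKO IgMneg, 118 and 208 in CKO IgMhi, and 91.1 to 158 in control libraries, and of the erythroid list 2 of 10 genes were in the table, with 284 normalized counts in CKO IgMneg library 3 against 2.22 to 19.0 in the other 7 libraries. The plasma cell list (8 of 9 tested) summed to 8261 to 11989 in CKO IgMneg, 15959 and 12047 in CKO IgMhi, and 29576, 25283 and 9930 in control libraries. Igj alone held the largest part of each sum, with 4243, 3100 and 6647 in CKO IgMneg, 9941 and 6631 in CKO IgMhi, and 22008, 18174 and 4898 in control libraries. In the plasma cell list Prdm1, the regulator of plasma cell fate, fell in CKO IgMneg against CKO IgMhi cells (-0.79 ± 0.20 SE, limma adjusted p = 0.0251). The germinal centre list (10 of 11) summed to 329 to 433 in CKO IgMneg, 277 and 159 in CKO IgMhi, and 216 to 235 in control libraries. CKO IgMneg library 3, where histone genes were high, thus also held the most myeloid and erythroid RNA. The part of these cells in the histone levels was not tested.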

How the data were processed

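Expression in sorted B-1a cells was read from 1 table of 10783 genes and 8 libraries. The authors removed ribosomal RNA, aligned reads to mm9 (TopHat2 2.0.13), counted them per gene (HTSeq 0.6.0, union mode) and divided each library by a DESeq2 size factor (R 3.3.1 per the labels). The deposited values are therefore signal, normalized counts per gene. Each was a whole multiple of 1 step per library within 0.01 read (100% of values), so reads were recovered. Each listed gene had at least 61 reads over all libraries, and 17 names had turned into spreadsheet dates.

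In R 4.3.3, limma 3.58.1 (with trend) was fitted to log2(normalized count + 1) over 3 groups for the 10627 genes that reached 10 normalized counts in 2 or more libraries. Tests were two-sided, and the scripts were tested on simulated data. Whether the replicates were single mice or pools is not given in the sources used here, so p-values measure the spread between these libraries. Fold changes on this scale understate those of low genes. edgeR 4.0.16 and DESeq2 1.42.0 on the recovered reads, other scalings (TMM, quantile, total count), pseudocounts (0.5 and 5), filters, a length and GC correction, thinning, a replicate block and leaving out libraries were alternatives.

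The CKO mice 2 and 3 carry the same number in both sorts, which was taken to name the mouse. Deviations of the same-numbered libraries correlated at 0.26 and 0.20 over all genes, and at -0.26 and -0.20 with the numbers crossed. With 2 CKO IgMhi libraries these deviations mirror each other, so they are no separate checks, and the pairing rests on the numbers. limma estimated a within-mouse correlation of 0.26.

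Named genes were members called, the 2 of highest mean level in each class, the 2 highest and the 2 lowest per comparison, and any at 0 reads. From other lists they were up to 3 called genes per comparison by p, or else the 2 of highest level, with Slbp, Npat and Rn45s. The members and lists were chosen with earlier results of these data known. Gene models were GENCODE vM1 on mm9, matched by name for 9943 genes (92.21%). The authors took their transcript annotation from iGenomes. Exon lengths, unique windows, overlaps and exon limits given here may thus differ from those behind the counts.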

Additional observations from a re-analysis of the deposited data

How the results depend on the processing

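No member passed the test in CKO IgMneg against CKO IgMhi cells, and the count of members called was 1 with total count scaling without Rn45s (879 of 10627 genes over all), 1 with a filter of 50 normalized counts (903 of 8644), 1 with the 2 groups alone (766 of 10627), 1 with edgeR (1109 of 10627) and 1 with DESeq2 (1327 of 10211). With a replicate block for the paired CKO mice it was 2 as a random effect (1633 of 10627) and 13 in the CKO libraries alone (2465 of 10627). Leaving out 1 library at a time gave 0 to 2 members called, with 1 without CKO IgMneg library 1 (Hist1h2bn), 1 without control library 2 (Hist1h2bn) and 2 without CKO IgMneg library 3 (Hist1h2af and Hist1h2bl). In CKO IgMneg against control cells the count was 1 with DESeq2 (187 of 10624) and 1 with the length and GC trend removed (67 of 9814), both Hist1h1e, and 0 with the replicate block and without any 1 library. In CKO IgMhi against control cells it was 0 under every alternative run. Log2 fold changes reversed for Hist1h2bh in CKO IgMhi against control cells without control libraries 1 and 2 (-0.00106) and for Hist1h4n in CKO IgMneg against CKO IgMhi cells, which ranged from -1.04 to 0.000473 when 1 library was left out. Total count scaling moved the median of all genes in CKO IgMhi against control cells to 0.15, and that of the members to 0.09. Over all genes, calls ranged from 0 (limma without trend) to 2465 (replicate block in the CKO libraries alone) in CKO IgMneg against CKO IgMhi cells, where limma called 800, from 7 to 187 in CKO IgMneg against control cells (32) and from 1 to 120 in CKO IgMhi against control cells (19). The cause of these changes was not tested. The CKO IgMhi group holds 2 libraries, and the median member had 93 reads in control library 2.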
